A study of Mus musculus with 12 samples.

Results

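The transcripts described here are those of the pituitary gland of control mice, ranked by how brightly their probes lit on Agilent 2-colour arrays. The members are all 4 samples on the normal diet, out of 12 samples in the series, taken with both of their arrays and both dye channels. The series profiled pituitaries of 2-month-old C57BL/6J females, an inbred strain, with 4 animals called biological replicates in each of 3 groups. The control group ate a normal diet, and the other groups lacked vitamin D in the diet only in early life or only around puberty. Each gland was removed from an adult female and minced, and its total RNA was amplified and labelled. Controls 1 and 2 shared the first control array, in Cy3 and Cy5, and controls 3 and 4 shared the second in the same order. The array and the pair of animals cannot be told apart, and the dye coincides with the odd and even animals. Both arrays lay on 1 slide in 1 scan session. The other 8 samples lay on another slide, scanned in another session. They entered only the normalization, the estimate of spread and the dye term, and no diet was compared. That estimate therefore rests in part on arrays of another slide, session and diet. The samples are whole glands, so fewer cells of a type and less RNA per cell cannot be told apart.

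The pituitary joins an anterior lobe, an intermediate lobe and a neural posterior lobe. The anterior lobe holds cells that each specialise in a hormone: growth hormone, prolactin, corticotropin cut from the Pomc precursor, thyrotropin, and the gonadotropins. Thyrotropin and both gonadotropins are dimers of a common alpha subunit, encoded by Cga, and a beta subunit of their own, encoded by Tshb, Lhb or Fshb. The intermediate lobe makes melanotropin from Pomc, and the posterior lobe holds axon endings from the hypothalamus that release oxytocin and vasopressin.

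The share of spots well above background was 61.0% to 66.3% in the 4 channels, and no spot was saturated. The arrays named 30119 genes, of which 29564 had a value in all 4 controls and were ranked. The reference table gave a symbol for 21883 of the ranked genes. A gene is represented by the brightest of its probes. Brightness depends on the probe as well as on the transcript, so a rank orders spots and is no measure of molecules. Among 6756 genes with at least 2 probes, the brightest and dimmest probe differed by a median of 1.34 on the log2 scale, and by more than 3 in 21.8%. Among such genes in the 1000 brightest, 245 in number, the median gap was 3.29. The alpha subunit gene shows the size of this effect: 1 of its probes ranked 18 among all probes, and another, listed under the same name, ranked 20987 with a mean of 7.44.

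The probes of 3 hormone genes are shown because the ranks of the gland's products rest on them. Each is 60 bases long and has at least 1 reading frame without a stop. The Pomc probe has its first stop at base 4 in frame 1 and at base 54 in frame 3. The stop at base 54 is marked in capitals.
Gh: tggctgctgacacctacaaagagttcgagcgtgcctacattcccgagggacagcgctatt
Pomc: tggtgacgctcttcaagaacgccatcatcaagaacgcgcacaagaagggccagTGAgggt
Lhb: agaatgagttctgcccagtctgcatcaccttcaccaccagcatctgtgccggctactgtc
In mouse build mm9, the file places the Gh probe at chr11:106162492-106162735 and the Pomc probe at chr12:3960413-3960472. The Lhb probe lies at chr7:52676685-52676744. The span of Gh is longer than the probe itself.

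Gh, the growth hormone gene, was the brightest of all genes. Its normalized log2 signal was 18.06, 18.54, 18.29 and 18.31 in controls 1 to 4, a mean of 18.30 ± 0.20 (SD, n = 4). The lowest and the highest value were both on the first array, and the animals of the second lay between them. Prl, the prolactin gene, ranked 4 with 16.89, 17.79, 18.24 and 18.07, a mean of 17.75 ± 0.60. Control 1 was the lowest, and both animals of the second array stood above both of the first. The difference between the arrays was 0.82 and did not pass the test described further on (limma, adjusted p = 0.340).

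Pomc ranked 17 with a mean of 17.45 ± 1.03. Its signal was 16.47 in control 1, 18.46 in control 2, 16.64 in control 3 and 18.21 in control 4. Both Cy5 samples were high and both Cy3 samples low, with no overlap. Over all 6 arrays of the series, Cy5 minus Cy3 was 1.22 ± 0.17 (SE) for Pomc, with an adjusted p of 0.165 in limma, so the call was not reached. Without loess it was reached (1.96, adjusted p = 0.00262 in limma), but there 2865 of 18869 genes passed, against 1 of 18868 in the reported fit. Dye and animal cannot be told apart within the controls. Pcsk2, a protease that trims Pomc and other prohormones, had the same order, with 15.26, 16.64, 15.67 and 16.55.

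Cga ranked 18 with 17.40, 17.55, 17.91 and 16.76, and control 4 was lowest. The genes of the beta subunits were dimmer. Fshb, of follitropin, ranked 1003 with 15.18, 14.71, 13.11 and 14.14. Tshb, of thyrotropin, ranked 1367 with 13.17, 13.71, 13.74 and 14.20. Lhb, of lutropin, ranked 2135 with 13.87, 13.57, 12.91 and 11.26. Fshb and Lhb were lower in both animals of the second array than in both of the first, by 1.32 and 1.63, while Tshb differed by 0.53 in the other direction. None of the 3 passed the test, with adjusted p of 0.230, 0.339 and 0.805 in limma. The gap between probes of Cga and those of its partners is a gap between probes, and no ratio of subunits can be read from it.

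**Figure D1:**
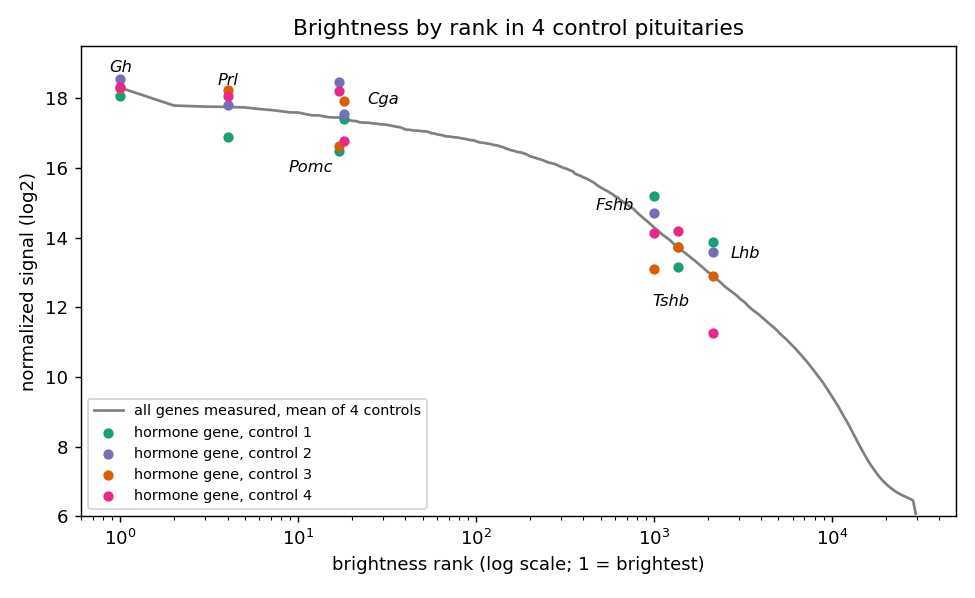
Mean normalized log2 signal of the 4 controls against brightness rank on a log scale (grey line), with the value of each animal for the 7 hormone genes (points). Gh, Prl, Pomc and Cga lie within the first 18 ranks, and Fshb, Tshb and Lhb between ranks 1003 and 2135.

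The 100 brightest genes spanned 18.30 to 16.76 in mean log2 signal, and the signal fell to 14.29 at rank 1000 and to 9.44 at rank 10000. Among the 100 were 4 hormone genes, 21 genes of ribosomal proteins, 4 transcripts of the mitochondrial genome and 3 genes of secretory granules and prohormone processing. A further 27 had no symbol in the reference table and 8 were predicted genes or pseudogenes. The same genes led on both arrays, since 84 were among the 100 brightest of each array, and 944 among the 1000 brightest of each. In the 100 brightest of every one of the 4 samples were 56 genes.

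Genes of the ribosome, of translation and of secretion were among the brightest named genes beside the hormones. Rpl10, a ribosomal protein gene, ranked 3 with 17.56, 17.95, 17.76 and 17.77. Rpl41 ranked 10 and Rpl37a ranked 23. The 74 ribosomal protein genes measured leave out pseudogenes and copies with a suffix such as l, but the copies Rpl36al and Rps3a3 were counted. All 74 were well above background in all 4 samples, against 57.8% of all genes. Their median rank was 173, and 73 of them were in the 1000 brightest. Rps14, Rps27 and Rplp0, also of the ribosome, held ranks 27, 28 and 31. Tpt1, a growth-related cytosolic protein, ranked 11, Eef1a1, which brings tRNA to the ribosome, ranked 39, and Ubb, a ubiquitin gene, ranked 30. The 12 translation factors of the list had a median rank of 481 and were all well above background.

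Chgb, a granin that packs the secretory granule, ranked 5 with 17.43, 18.11, 17.74 and 17.66. Pcsk1n, an inhibitor of prohormone convertase, ranked 42, and Scg5, a chaperone of that family, ranked 87. Cpe, which trims peptides after cleavage, ranked 120, Scg2 ranked 229 and Chga ranked 269. All 12 genes of granins and processing were well above background in all 4 samples, with a median rank of 285.5. Furin, which cleaves precursors in the Golgi of most cells, was the dimmest of them at rank 6411. The 15 genes of the endoplasmic reticulum that were measured also passed this limit in all samples, led by Hspa5, its main chaperone, at rank 159, and their median rank was 834. All 16 exocytosis genes passed too, with Snap25, a docking protein of vesicles, at rank 925 and a median rank of 5584.5.

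Other bright genes belong to no hormone. Gnas, which encodes the stimulatory G protein alpha subunit, ranked 19 with 16.99, 17.57, 17.66 and 17.29. Its other 3 probes ranked 493, 7606 and 17263 among all probes. Dlk1, an imprinted membrane protein of the Notch family, ranked 22 with 17.58, 17.22, 17.45 and 17.00. COX2, a mitochondrial gene for a subunit of cytochrome oxidase, ranked 16 with 17.51, 17.34, 18.04 and 16.89, and COX1 ranked 21 with 17.76, 17.66, 16.39 and 17.56. Gapdh, the glycolytic enzyme, ranked 35, and its brightest probe is placed by the file on chromosome 7 at 59003199 to 59003257, which is not the locus of the Gapdh gene, so this is the rank of that probe. Gm6548, a predicted gene, ranked 25. Ttc38, Slc10a1 and Zfp628 ranked 14, 15 and 13.

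Several of the brightest genes are not known as abundant products of this gland, and 20 of the 100 brightest probes held a word of 13 bases that at least 3 of those probes shared. These stretches of 30 bases are shown because they connect genes of unrelated function, with the shared word in capitals.
Pirb: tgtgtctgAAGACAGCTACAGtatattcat
Pbld1: agtgtctgAAGACAGCTACAGtgtaatttc
Fam177a2: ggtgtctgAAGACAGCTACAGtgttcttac
Glrx2: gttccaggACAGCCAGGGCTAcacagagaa
Kctd14: gttccaggACAGCCAGGGCTAtacaaaaaa
Elk1: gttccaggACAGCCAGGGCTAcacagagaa
Exosc2: accacatgGTGGCTCACAACCatccgttac
Milr1: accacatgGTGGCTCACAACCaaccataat
Gapdh: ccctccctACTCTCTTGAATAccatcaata
From general knowledge of mouse repeats, the word of Pirb, Pbld1 and Fam177a2 and that of Exosc2 and Milr1 resemble the B2 short interspersed repeat, and that of Glrx2, Kctd14 and Elk1 the B1 repeat, both of which occur in the untranslated parts and introns of many transcripts. The probes were not realigned to a genome here, so their origin was not tested. The last word is shared with probes of Gm5523 and Gm12070, which the reference table lists as pseudogenes.

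Probes with these words were bright as a set when the word stood in the orientation printed. The first word occurred in 11 probes, or 0.0279% of all, and 10 of them lay in the brightest 1% of the 38449 probes measured, with a median rank of 101. Its reverse complement occurred in 2 probes, of median rank 13807, and neither lay in the brightest 1%. The word of Glrx2 occurred in 9 probes, 6 of them in the brightest 1%, with a median rank of 47. Its reverse complement occurred in 4 probes, of which 3 were measured, with a median rank of 6769 and none in the brightest 1%. The word of Exosc2 and Milr1 occurred in 3 probes, all in the brightest 1%, and that of Gapdh in 8, of which 7 were. Neither occurred as its reverse complement. The words were searched for among the brightest probes, so the ranks as printed describe that choice and only the reverse orientation is independent of it.

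Of the 20 genes whose probe held a word, 13 were highest in control 3 and lowest in control 4. That order held in 18 of the other 80 among the 100 brightest, COX2 and Cga included, and in 10.4% of all genes tested. Glrx2, a mitochondrial glutaredoxin, ranked 6 with 17.57, 17.77, 18.06 and 17.36. Kctd14 ranked 7, Exosc2, a subunit of the RNA exosome, ranked 8, and Elk1, a transcription factor, ranked 9. Milr1, an immune receptor of mast cells, ranked 12, Med16, a Mediator subunit, ranked 24, Pirb, an immunoglobulin-like receptor, ranked 26, and Pbld1 ranked 33. These 8 genes were among the 13, while Synrg and Medag, at ranks 44 and 92, were lowest in control 1 and Gapdh was lowest in control 3. Another probe was measured for 7 of the 8, and in 6 it was far dimmer. The next probe of Glrx2 ranked 10156 among all probes, that of Kctd14 ranked 18756, that of Elk1 ranked 24591, that of Med16 ranked 6834, that of Pirb ranked 15546 and that of Pbld1 ranked 18363. Milr1 was the exception, with its next probe at rank 541. How much of the signal comes from the named transcript was not tested. The file places the probe of Glrx2 at chr1:145596708-145596767, that of Pirb at chr7:3663046-3663105 and that of Exosc2 at chr2:31536706-31536765 in build mm9.

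The cell types of the gland were read from marker lists, and over all genes 57.8% were well above background in all 4 samples. Gh, Prl and Pomc were the brightest of their lists, as was Cga in those of gonadotrophs and thyrotrophs, whereas some other markers outranked the beta subunits. Somatotroph markers passed in 4 of 5 measured genes, with Rxrg, a retinoid receptor, at rank 2405 and Pappa2, a protease, at rank 3228. All 6 lactotroph markers passed. Sstr5, a somatostatin receptor, ranked 1497 and Drd2, the dopamine receptor through which the hypothalamus restrains prolactin, ranked 8972. Corticotroph markers passed in 5 of 6. Crhr1, the receptor of corticotropin-releasing hormone, ranked 8446 and Tbx19, the factor that turns on Pomc, ranked 9238. Gpr83 was well above background in 0 samples.

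All 6 melanotroph markers passed with a median rank of 906. Beside Pomc and Pcsk2, Esm1 ranked 734, Oacyl ranked 1078 and Pax7, the factor that separates melanotrophs from corticotrophs, ranked 7759. All 8 gonadotroph markers passed with a median rank of 1689.5. Tgfbr3l, a co-receptor for inhibin, ranked 657, ahead of Fshb and Lhb, Foxl2 ranked 1244, ahead of Lhb, Gnrhr, the receptor of gonadotropin-releasing hormone, ranked 4295 and Nr5a1 ranked 4696. Thyrotroph markers passed in 5 of 6, with Dio2, which activates thyroid hormone, at rank 3276 and Trhr at rank 15316.

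Stem and folliculostellate markers passed in 8 of 9. Cyp2f2 ranked 847, Mia ranked 1070 and Sox2, a stem cell factor, ranked 10292. Of the posterior lobe, Oxt, for oxytocin, ranked 1381 with 13.11, 13.66, 14.54 and 13.44, and Avp, for vasopressin, ranked 8017 with 9.91, 10.70, 10.11 and 9.84. Pituicyte markers passed in 6 of 8 with a median rank of 13838.5, near the median of 14782.5 over all genes. Neuronal genes passed in 9 of 10, led by Snap25, which endocrine cells also use, with Slc17a6, a glutamate transporter, at rank 8523 and Gad1 in 0 samples.

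All 10 endothelial genes passed, with Egfl7 at rank 3608 and Kdr at rank 3878. Pericyte and smooth muscle genes passed in 5 of 8 and genes of fibroblasts and meninges in 7 of 8, with Tagln at rank 1564, Col1a2 at rank 795 and Dcn at rank 1959. Macrophage genes passed in 9 of 10, with Csf1r, the receptor that macrophages need, at rank 5135. Lymphocyte genes passed in 4 of 8, and Cd3g, Cd8a and Ms4a1 were well above background in 0 samples. Genes of Schwann cells and oligodendrocytes passed in 9 of 10, led by Mbp at rank 4260.

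Tissues near the gland or far from it gave weaker marks. Skeletal muscle genes passed in 3 of 8, bone and cartilage genes in 2 of 7, liver genes in 4 of 8 and ovary genes in 1 of 8. Ckm, Mylpf and Tnnt3 of muscle, and Apoa1 and Fgb of liver, were well above background in 0 samples, and Alb, for albumin, in 1. The ovary gene was Cyp17a1, at rank 5421 with 11.43, 11.03, 11.33 and 10.69. Of the 10 proliferation genes 6 passed, with a median rank of 16069. Mki67 was brightest at rank 11587.

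Of the lineage factors, 14 of 16 passed. Pitx1 ranked 1330, Lhx3 ranked 1640 and Pou1f1, needed for somatotrophs, lactotrophs and thyrotrophs, ranked 6109. Receptors for hypothalamic signals passed in 9 of 11. Sstr3 ranked 5885, Oxtr ranked 5846 and Sstr2 was well above background in 0 samples. Of 9 receptors for hormonal feedback 8 passed, with Esr1, the estrogen receptor alpha, at rank 4904, Thra at 5714, Thrb at 5732 and Nr3c1, the glucocorticoid receptor, at 6032. The 10 immediate early genes all passed, with Nr4a1 at rank 1601 and Egr1 at rank 1960. The 8 transcripts of the mitochondrial genome had a median rank of 235.5, and the 10 common cytoskeletal and reference genes one of 715.

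**Figure D2:**
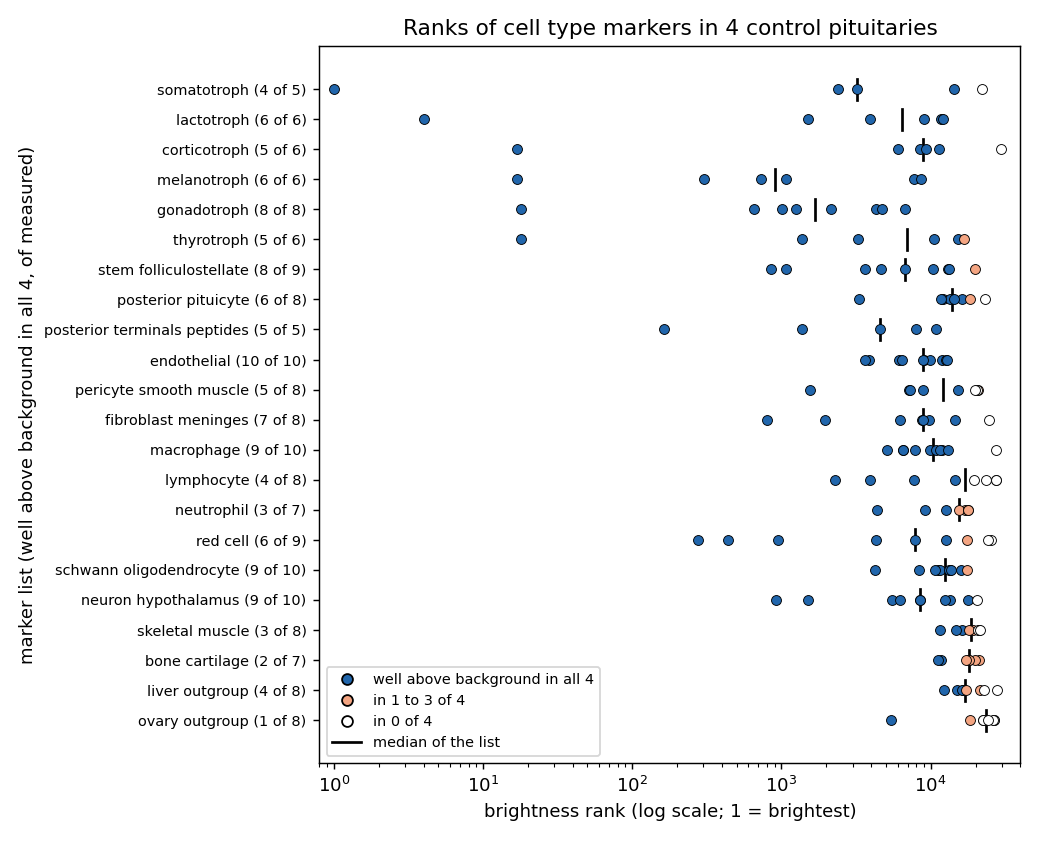
Brightness rank (log scale) of every measured marker in 22 cell type lists, filled by the number of the 4 controls in which its probe was well above background, with the median of each list as a vertical line. Gh, Prl, Pomc and Cga stand far to the left of their lists, while Tgfbr3l at rank 657 lies left of Fshb and Lhb, and the ovary list lies almost wholly among genes not above background.

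The 4 animals differed little for most genes. Over the 18868 genes well above background in at least 2 controls, the SD over the 4 animals had a median of 0.180. It was above 1 in 219 genes, or 1.16%. The median absolute difference was 0.171 between controls 1 and 2 and 0.201 between controls 3 and 4, which shared an array. For the 4 pairs on different arrays it was 0.177 to 0.227. The widest pair was controls 1 and 3, and the ranges of both kinds of pair overlapped. The mean over pairs was 0.186 within arrays and 0.197 between them, and this closeness depends on the scaling between arrays. With median centring after loess the means were 0.189 and 0.418, and with the software's processed intensity 0.267 and 0.382. Pearson's r across genes was 0.971 to 0.989, and genes are not independent replicates.

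Spots printed more than once show the error within a sample. For 300 probes with 10 spots each, the SD of a spot within a channel had a median of 0.210, and the SD over the 4 animals of the probe's mean, which averages those spots, was 0.173. These values are of different kinds, since a mean over 10 spots carries less spot error than a single spot. By brightness, the median SD was 0.222 in the first 100 ranks, 0.149 in the next 900, 0.188 to rank 5000, 0.200 to rank 10000 and 0.169 beyond.

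**Figure D3:**
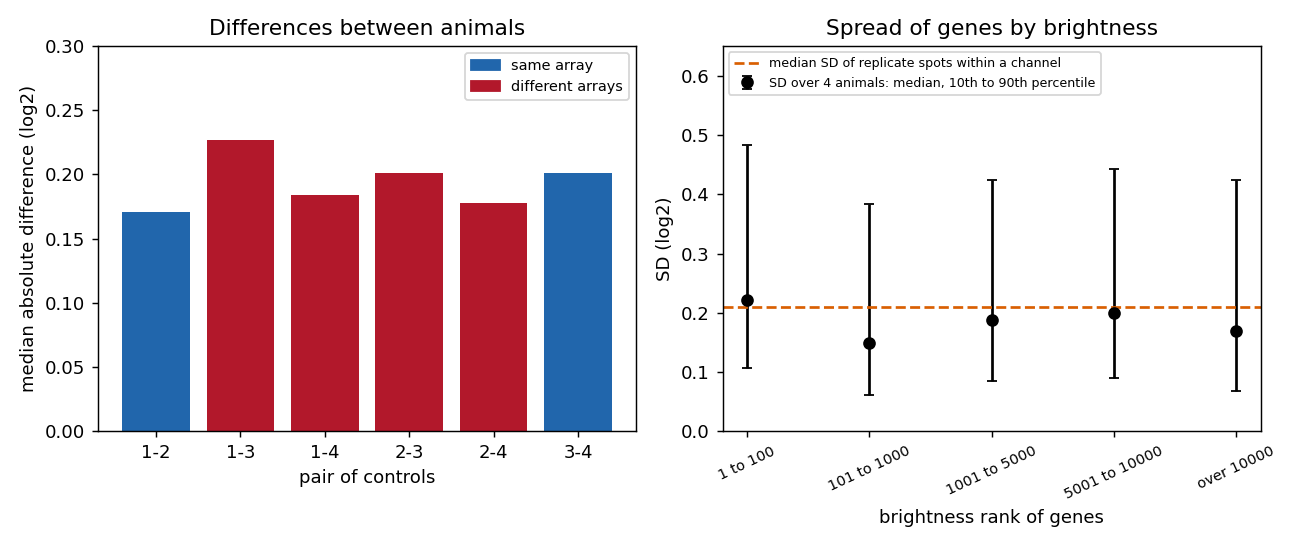
Left, bars give the median absolute log2 difference over 18868 genes for each pair of controls, blue for the same array and red for different arrays. Right, points give the median SD over the 4 animals by brightness rank, bars the range from the 10th to the 90th percentile, and the dashed line the median SD of replicate spots within a channel, 0.210.

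The steadiest genes among the 1000 brightest included Eif4a2, an initiation factor, Cox8a, of cytochrome oxidase, Tceal6, and Vps28, of endosomal sorting. Eif4a2 had 14.40, 14.42, 14.45 and 14.42, an SD of 0.021. These 4 genes had SDs of 0.021 to 0.033. They were chosen for small values out of 1000 genes, and such SDs are a description only.

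Of the 10 named genes of largest SD among those well above background in all 4 samples, 7 differed between the arrays and 3 in a single animal. The 3 were S100a8 and S100a9, calcium-binding proteins of neutrophils, and Chrna6, a nicotinic receptor subunit. S100a9 had 10.24, 14.52, 10.20 and 11.29 and S100a8 had 8.09, 12.79, 8.52 and 9.61, so control 2 stood far above the others in both. Chrna6 had 8.17, 8.10, 12.02 and 7.82, and only control 3 was high. The 7 were Nrg3, Tmem201, Ces2g, Irx6, Lmx1b, Clasp2 and Lrrcc1, with SDs from 1.91 to 2.74.

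Each animal had lists in which it stood at an end. Counted over genes tested, control 2 was highest in all 5 neutrophil genes and in 6 of 9 macrophage genes, and in 22.6% of all genes. Ltf, of neutrophil granules, had 7.15, 8.85, 7.16 and 7.73, and Ngp had 6.92, 8.45, 6.95 and 7.23. Ltf and Ngp were not well above background in every animal, and Mmp8 and Ly6g, which were not tested, in that animal only.

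Control 1 was lowest in 8 of 10 immediate early genes and in all 6 melanotroph genes, against 27.1% of all genes tested, and highest in 6 of 7 proliferation genes tested, against 24.6%. Egr1, a factor induced within minutes of stimulation, had 11.31, 13.29, 15.03 and 12.60. Fos had 9.36, 11.64, 12.63 and 11.25, and Dusp1 had 10.03, 11.42, 12.07 and 11.31. Control 1 was lowest and control 3 highest in all 3. In the whole list control 3 was highest in 5 of 10, against 29.1% of all genes tested, and control 4 in 3. Of 10 genes of Schwann cells and oligodendrocytes control 1 was highest in 5, against 24.6% of all genes tested, and lowest in 3, against 27.1%. Among the 5, Prx had 10.43, 7.77, 7.57 and 7.51, Sox10 had 9.11, 7.54, 7.79 and 8.28, and Pmp22 had 11.09, 9.89, 9.71 and 9.40. Mbp, of central as well as peripheral myelin, was among the 3 lowest there, at 11.30.

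Control 3 was highest in 7 of 8 mitochondrial transcripts, against 29.1% of all genes tested, and COX1 was the exception, lowest there. It was lowest in 12 of 15 genes of the endoplasmic reticulum, against 28.0% of all genes. Hspa5 had 16.49, 16.76, 15.96 and 16.78, and Hsp90b1 had 16.03, 15.93, 15.30 and 15.95. It was also lowest in 7 of 9 macrophage genes tested and 7 of 10 cytoskeletal genes. Gal, for galanin, a peptide that estrogen raises in lactotrophs, ranked 164 with 17.57, 16.81, 14.20 and 17.37, and control 3 alone was low. Pgr, the progesterone receptor, had 9.91, 10.07, 8.62 and 10.07, and Esr2 had 10.74, 10.81, 11.51 and 10.84.

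Control 4 was lowest in 7 of 8 mitochondrial transcripts and in 6 of 8 gonadotroph genes, against 25.2% of all genes tested. Lhb was among them, and Gnrhr had 11.98, 11.91, 11.64 and 10.84. Control 4 was highest in 7 of 10 cytoskeletal genes, against 23.7%. Each of these counts describes 1 animal, with no test. The stage of the estrous cycle and the time of day of each animal are not given in the sources used here.

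**Figure D4:**
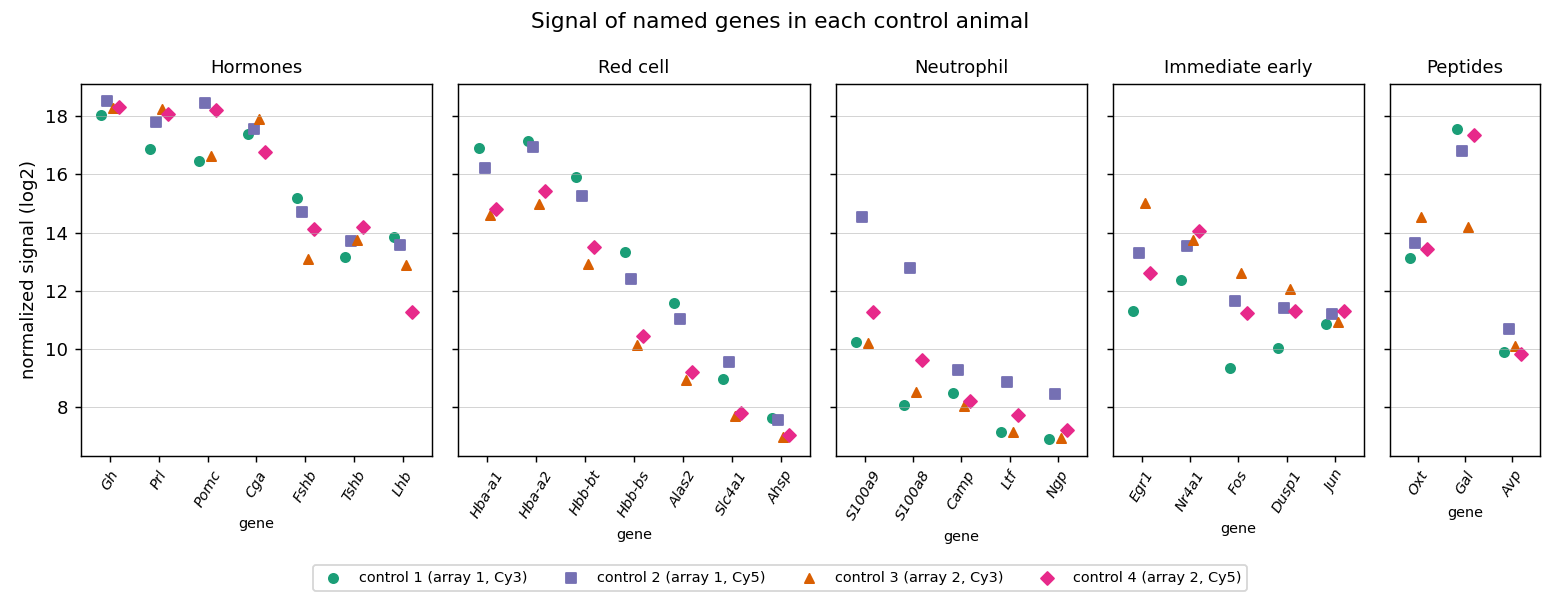
Normalized log2 signal of named genes in each control animal, by group, with the colour and shape of the point marking the animal, its array and its dye. The red cell genes are lower in controls 3 and 4, the neutrophil genes highest in control 2, Fos, Egr1 and Dusp1 lowest in control 1, and Gal low in control 3.

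Whether the pair on the second array differed from the pair on the first was tested in limma on all 12 samples, with a term for each array and for dye, so that the spread came from animals sharing an array. Variation from array to array is therefore not in its error. Of 18868 genes tested, 535 passed an adjusted p of 0.05, or 2.84%. The count depends on scaling and filter: it was 6517 with median centring after loess, 2877 with median centring and no loess, and 139 when genes had to be well above background in all 4 controls. Of the 535, 269 were not well above background on 1 of the arrays, and such genes passed the filter only through the array where they were bright. In controls 3 and 4, 194 were higher (1.03%) and 341 lower (1.81%). Higher calls were thus 36.3% of all calls, against 58.2% with the software's processed intensity and 10.9% with median centring after loess, which moved the median of all genes by 0.30 and -0.36. The median difference over all genes was 0.00. All 535 had arrays that did not overlap, which held for 34.6% of all genes tested. The calls rest on 2 animals an array, and with only the 4 controls in the fit, which leaves 1 residual degree of freedom, 0 genes passed and 1268 had an unadjusted p under 0.05. When 1 control was left out, the filter still asked for 2 controls. Genes bright only on the array of that control were then not tested, while genes bright only on the other array were, so the filter itself shifts the direction of the calls. Without control 1 or control 2 the counts were 97 and 122, with 81.4% and 76.2% higher against 36.3% with all samples, and without control 3 or control 4 they were 161 and 329.

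Genes of red blood cells were lower in controls 3 and 4. Of 7 tested, 4 passed as lower, against 1.81% of all genes tested. All 7 estimates were negative, against 9365 of 18868 over all genes, with a median of -1.87 against 0.00. Hbb-bs, an adult beta globin, had 13.35, 12.39, 10.15 and 10.46, a difference of -2.56 ± 0.34 (SE, adjusted p = 0.00842 in limma). Both animals of the first array were high and both of the second low, without overlap. Hbb-bt had 15.90, 15.25, 12.92 and 13.49 (-2.37, adjusted p = 0.0375). Alas2, the first enzyme of heme synthesis in red cells, had 11.60, 11.03, 8.94 and 9.23 (-2.23, adjusted p = 0.0384). Hba-a1, an alpha globin, had 16.93, 16.22, 14.61 and 14.80 (-1.87, adjusted p = 0.0498), just past the threshold. Hba-a2, Slc4a1 and Ahsp differed by -1.85, -1.52 and -0.58 and did not pass. Leaving out single controls ended calls with the sign kept: Hbb-bs had adjusted p of 0.110 without control 1 and 0.0856 without control 3, and Hbb-bt, Alas2 and Hba-a1 missed the threshold without control 1, 2 or 3, with estimates of -1.28 to -2.41. Without control 4, Hba-a2 passed as well (-2.49, adjusted p = 0.0417).

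The 4 genes that passed had their nearest other called spot at least 3.16 grid steps away. The 3 globin genes among them ranked 435, 953 and 4309, and the part of blood in the differences of other genes was not tested. All 8 gonadotroph genes also had negative estimates, with a median of -0.50, and 0 passed in limma. Genes of macrophages, 9 of 9 tested, and of the endothelium, 9 of 10, were negative too, with medians of -0.31 and -0.39 and 0 calls. Over all genes 9365 of 18868 estimates were negative. Other lists leaned as far to 1 side. Estimates were negative in 13 of 15 endoplasmic reticulum genes and 5 of 5 neutrophil genes. They were positive in 7 of 8 mitochondrial transcripts and 8 of 10 immediate early genes.

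Over all lists, 7 of 243 genes tested passed, or 2.88%, close to the 2.84% of all genes, and 3 of them were not red cell genes. Slc1a3, a glutamate transporter of glia, was higher in controls 3 and 4, with 8.18, 8.21, 9.37 and 9.62 (1.30 ± 0.17, adjusted p = 0.00429 in limma), and its nearest other called spot was 11.2 steps away. It missed the threshold without control 2 (1.14, adjusted p = 0.0875) and without control 3 (1.28, adjusted p = 0.0532). Ahsg, a plasma protein made by the liver, had 8.03, 8.15, 6.55 and 6.60 and was not well above background on the second array. Its level there was lower by at least 2.47-fold (limma, adjusted p = 0.000207). Hesx1, a factor of the embryonic pituitary, had 10.36, 9.38, 6.61 and 6.79 and fell at least 8.28-fold (limma, adjusted p = 0.000439). Hesx1 too was not well above background on the second array. Ahsg and Hesx1 thus passed the filter only through the array where they were bright. The spots of Ahsg and Hesx1 each lay 1 grid step from another called spot.

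Many of the largest differences were in genes not known as products of this gland. Other probes well above background in at least 2 controls were found for Tmem201 (3) and for Krtap6-1, Slc16a14 and Catsper4 (1 each). Vmn2r52, a pheromone receptor gene, had 6.58, 6.35, 12.45 and 11.32, at least 29.9-fold higher in controls 3 and 4 (adjusted p = 0.00011 in limma). Timd2, Nrg3, Ctsll3, Hsf3, Tmem201, Krtap6-1 and Olfr800 followed, with log2 differences from 4.97 down to 4.26. In the other direction Olfr263, an odorant receptor gene, had 11.86, 10.90, 6.57 and 6.57, lower by at least 23.9-fold (adjusted p = 5.89e-05). Slc16a14, Vmn2r59, Olfr1471, Olfr1362, Olfr806, Dppa4 and Catsper4 followed, the last of them with -3.51. Of these 16 genes, 14 were not well above background on the dim array, so they passed the filter only through the array where they were bright. With the filter on all 4 controls only Nrg3 and Tmem201 of the 16 were tested, and both passed (limma, adjusted p = 0.00219 and 0.00286). In each of the 16 the spot lay 1 to 1.41 grid steps from another called spot.

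The called spots were gathered in places of the array. Of the 535, 321 (60%) lay within 2 grid steps of another called spot, against 9.86% of the 18333 genes that were not called. Of genes called with a difference over 2, 56 were higher and 54 lower in controls 3 and 4. On the array where they were bright, Cy3 was above Cy5 in 48 of the 56, by a median of 1.14, and in 51 of the 54, by a median of 1.00. For 58 called genes another probe was measured: the called probe differed by a median of 1.18 in size and the other by 0.109, with the same sign in 33. Tmem201 had 3 other probes with a median difference of -0.03, against 4.39 for the called probe.

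Odorant, pheromone and taste receptor genes passed in 41 of 206 tested, or 19.9%, against 2.84% of all genes. Of the 41, 33 were not well above background on 1 of the arrays, so the filter favoured genes that differed, and the 19.9% cannot be read as a property of these genes. Among those well above background in all 4 samples, 8 of 121 passed (6.61%), against 239 of 17100 of all such genes (1.4%). Only 8.54% of the 1417 such genes measured were well above background in all 4 samples. Of the 535 called genes, 464 had a dim spot within 2 grid steps, and the dim neighbours differed between the arrays by a median over 0.3 for 15 of them. A fit without all such genes, added after the values were seen, called 516, all among the 535. Dim spots were defined as well above background in none of the 4 controls. A neighbour raised past that limit on 1 of the arrays could thus not count. Neither the 15 nor the 516 shows how many calls lie in patches. The part of spot position in the other calls was not tested.

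**Figure D5:**
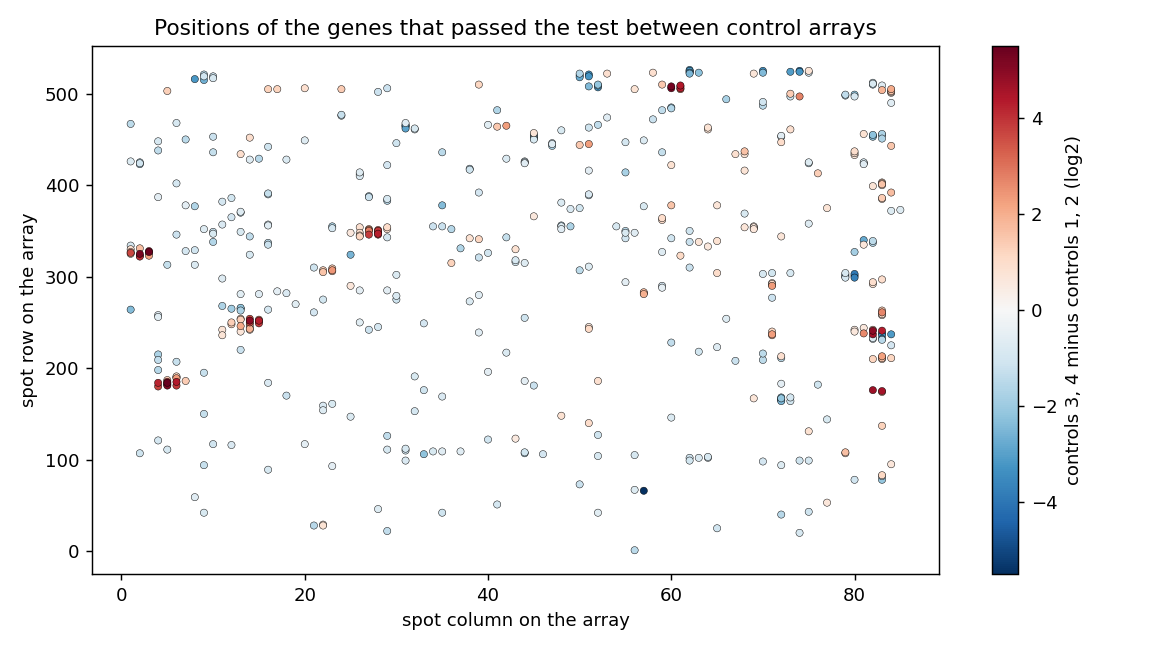
Spot position (column and row of the array grid) of the 535 genes that passed the test between the control arrays, coloured by the log2 difference of controls 3 and 4 from controls 1 and 2. Spots of large difference, in dark red and dark blue, lie in small groups.

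The dye was tested in the same fit, over all 6 arrays of the series. Only Fam83f passed of 18868 genes, or 0.0053%, with 10.64, 11.64, 10.87 and 11.74 in controls 1 to 4 and Cy5 above Cy3 by 0.94 ± 0.06 (SE, adjusted p = 0.00404 in limma). It missed the threshold without control 1 (adjusted p = 0.0527) and without control 2 (adjusted p = 0.0515). Pomc had a larger estimate, given above. Fdxacb1, Slc1a4 and Usf2 had estimates of 0.56, 0.55 and 0.49, each with an adjusted p of 0.165 in limma. In all 5 of these genes both Cy5 controls were above both Cy3 controls. The 5 were chosen by their p in a fit that includes these controls, so that order describes the choice. Its share over all genes was not counted.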

How the data were processed

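RNA of 12 pituitaries was hybridised to 6 Agilent 2-colour arrays. Per the file headers, the authors scanned them with Agilent Feature Extraction 11.0.1.1 on a design in build mm9. The deposited files give raw spot and background intensity for 44397 features, of which 1377 control features were left out. The authors' value table was not used. Intensity was corrected by normexp (offset 50), loess within arrays and Aquantile over the 6 arrays, and single-channel log2 values were taken (R 4.3.3, limma 3.58.1). Outlier-marked spots, 1.90% and 1.68% on the control arrays and 3.85% to 7.34% on the others, were removed for both animals, and replicate spots averaged. Symbols came from a reference table by accession for 27228 probes, by symbol for 3581 and by synonym for 565, while 8055 kept the file's name. The brightest probe stood for a gene, and loess removes dye differences common to genes of like brightness.

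Genes well above background in at least 2 controls were tested with limma, two-sided, with Benjamini-Hochberg adjustment and a threshold of 0.05. A spot missing on an array lowers the n of its gene. Lower bounds raise dim samples to the lowest signal well above background in their channel. On simulated data of 14884 genes for the comparison of control arrays, 73 of 100 genes changed by 1 and 94 of 100 changed by 2 were recovered, with 5 false calls. The simulated noise was independent between samples and spots. It held no variation from array to array and no patches of spots, so the 5 false calls give no error rate for the reported calls. The number of arrays limits the precision. P-values measure the spread between animals that shared an array, and variation from array to array is not in their error.

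The members and the 34 gene lists were chosen with earlier results of these data known. Named are the 30 brightest genes with a symbol, the hormone genes, the 8 largest array differences in each direction without predicted genes, the leading dye differences, the 10 largest and 5 smallest SDs, and members of each list, brightest first. Others singled out for an animal were chosen after their values were seen, and so was Gal. Some items that this rule takes are not reported here. Alternatives were another offset, the software's processed intensity, other scalings, outliers kept, means of probes, other filters and leaving out each control.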

Additional observations from a re-analysis of the deposited data

Results flagged for a closer look

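Of 290 named or listed genes, 15 (5.17%) had 1 control farther from the other 3 than Dixon's 95% limit for 4 samples allows, and chance flags about 1 in 20 groups. In control 3, Chrna6 (12.02), Cplx2 (14.75) and Esr2 (11.51) stood high, and Pgr (8.62), COX1 (16.39) and Hsp90b1 (15.30) stood low. Control 1 was high for Prx (10.43). Control 2 was high for Mrc1 (9.06), Vim (12.44), Pabpc1 (15.16) and Cd4 (11.87). Control 4 was low for B2m (13.30), Spp1 (10.20), Lum (9.13) and Tgfbr3l (14.63). The gaps were largest for Chrna6 and Prx, whose other 3 samples reached 8.17 and 7.77 at most.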

How the results depend on the processing

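No paired analysis was possible because the replicate numbers are shared only across diets, which were not compared, and the dye comparison already lies within arrays. The 535 array calls became 6517 with median centring after loess and 2877 with no loess, where the median over all genes tested moved by -0.36 (10.9% and 10.3% were higher, against 36.3%), 139 with the filter on all 4 controls, and 97 to 329 leaving out 1 control. With the software's processed intensity 558 passed, 396 of them shared, the median moved by 0.30 and 58.2% were higher. With the 2 control arrays normalized alone, or only the controls in the fit, 0 passed, with 1139 and 1268 at an unadjusted p under 0.05 in limma. Dye calls, 1 as reported, were 2865 without loess, where Pomc passed (1.96, adjusted p = 0.00262), 2 with the processed intensity, quantile scaling, median centring, probe means, the filter on all 4 or no filter, 0 in both fits of the controls alone, and 0 to 1 leaving out 1 control. With means of probes 64 of the 100 brightest stayed and Cga ranked 2239. Without probes that hold the shared words, 80 stayed. Under the alternatives for which ranks were taken, which leave out the other filters, Gh ranked 1, Prl 2 to 11 and Pomc 5 to 42. The cross-array difference of 0.197 became 0.382 with the processed intensity, 0.418 and 0.434 with median centring with and without loess, and 0.154 with no filter. The 228 list members above background ranged from 225 to 235. Of the red cell genes, Hbb-bs lost its call under 4 of 16 alternatives, Hbb-bt and Alas2 under 8 and Hba-a1 under 11, all with negative estimates. Signs were followed for the named genes of largest array difference, the red cell genes, Slc1a3, Ahsg and Hesx1. They were also followed for the medians of the red cell and gonadotroph lists. None of these changed sign where tested, and other genes and lists were not checked. The majority of array calls did change direction with the processed intensity. Mostly lower as reported (194 higher, 341 lower), they were mostly higher there (325 and 233). They were also mostly higher without control 1 and without control 2. In those fits the filter removed genes bright only on the first array and kept those bright only on the second. Their majority therefore cannot be read as a change of direction. The cause of the shift with the processed intensity, and any part of the others beyond the filter, was not tested.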
